A study of Mus musculus with 20 samples.

Results

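The genes of glycolysis, lactate handling and the pentose phosphate pathway were followed in mouse brown adipose tissue (BAT) across genotype and temperature. The 38 genes were listed by symbol from the named pathways and cover 4 hexokinases, 7 genes of upper glycolysis, 6 genes that set fructose 2,6-bisphosphate or take a phosphate off fructose bisphosphates, 9 genes of lower glycolysis, 4 genes of lactate and its transport, and 8 genes of the pentose phosphate pathway. All 38 were found among the 55471 gene IDs of the count tables, and 37 of them were among the 15233 genes with enough reads to test. The remaining member, Hkdc1, a hexokinase-like gene, was at or below 0.0593 CPM, the count scaled by library size, in all 20 libraries.

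Messenger RNA of BAT was sequenced in 4 groups of 5 libraries. WT_RT and WT_cold came from mice labelled wild type for CEBPB, at room temperature or after 4 h of cold stress, and KO_RT and KO_cold came from mice with an adipose-specific knockout of CEBPB under the same conditions. C/EBPβ, the product of Cebpb, is a transcription factor of adipocytes, and cold is the natural stimulus of heat production in BAT. The Cre driver, strain, sex, age, cold temperature and whether libraries came from separate animals were not given in the sources used here, so p-values measure the spread between these libraries.

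Glycolysis turns glucose into pyruvate and ATP in the cytosol, and lactate dehydrogenase interconverts pyruvate and lactate. The pentose phosphate pathway branches off at glucose 6-phosphate: its oxidative branch makes NADPH, which fatty acid synthesis uses, and its non-oxidative branch exchanges sugar phosphates with glycolysis. In the cold, BAT takes up glucose and burns fatty acids through uncoupled respiration. Many steps of these pathways have several isoenzymes that differ by tissue, so both the level of each gene and the balance of isoenzymes are given.

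Promoter sequences are shown first for 5 members whose results are described below: Hk2 and Pfkfb3, the leading genes of their roles, Ldha, whose window was the only member window with a full CRE, Rpia, whose window was the only member window with a C/EBP palindrome, and Rpe, which differed between genotypes. Each is the 250 bases before the annotated start in RefSeq (GRCm38.p6), on the gene's strand and 5′ to 3′, with base -1 the last before the start, and capitals mark motif matches.
Hk2 (chr6:82774455-82774704, minus strand): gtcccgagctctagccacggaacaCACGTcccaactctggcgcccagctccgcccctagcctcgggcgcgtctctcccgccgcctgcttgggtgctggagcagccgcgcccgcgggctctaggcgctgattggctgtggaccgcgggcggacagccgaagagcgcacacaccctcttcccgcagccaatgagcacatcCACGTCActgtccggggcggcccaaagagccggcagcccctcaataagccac
Pfkfb3 (chr2:11553930-11554179, minus strand): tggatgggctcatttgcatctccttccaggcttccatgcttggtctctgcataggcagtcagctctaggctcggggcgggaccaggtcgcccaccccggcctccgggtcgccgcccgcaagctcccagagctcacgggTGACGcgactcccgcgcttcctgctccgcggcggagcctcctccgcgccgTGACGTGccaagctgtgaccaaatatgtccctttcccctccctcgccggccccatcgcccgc
Ldha (chr7:46845554-46845803, plus strand): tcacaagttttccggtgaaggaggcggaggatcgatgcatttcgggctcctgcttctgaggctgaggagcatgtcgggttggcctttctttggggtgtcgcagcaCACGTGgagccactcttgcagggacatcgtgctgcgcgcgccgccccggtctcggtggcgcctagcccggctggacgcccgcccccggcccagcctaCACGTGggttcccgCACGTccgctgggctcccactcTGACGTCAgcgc
Rpia (chr6:70792176-70792425, minus strand): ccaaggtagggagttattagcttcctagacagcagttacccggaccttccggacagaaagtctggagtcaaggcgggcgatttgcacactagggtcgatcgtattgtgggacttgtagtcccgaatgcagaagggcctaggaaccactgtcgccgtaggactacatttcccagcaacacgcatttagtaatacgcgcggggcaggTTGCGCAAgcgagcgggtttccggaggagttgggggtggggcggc
Rpe (chr1:66700581-66700830, plus strand): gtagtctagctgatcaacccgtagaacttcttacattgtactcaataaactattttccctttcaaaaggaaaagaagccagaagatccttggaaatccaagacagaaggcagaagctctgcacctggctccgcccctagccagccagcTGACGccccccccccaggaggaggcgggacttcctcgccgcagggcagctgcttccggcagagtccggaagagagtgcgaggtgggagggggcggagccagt
The motifs searched on both strands were ACGTG (the core of the hypoxia response element), CACGTG (an E-box, which contains ACGTG on each strand), TGACGTCA (the cAMP response element, CRE, which contains TGACG on each strand), TGACG (the core of each CRE arm) and TTGCGCAA (a C/EBP palindrome). The Hk2 window held ACGTG on the minus strand at bases -226 to -222 and -52 to -48, the latter overlapping TGACG on the minus strand at -50 to -46. The Pfkfb3 window held TGACG at -112 to -108 and at -62 to -58, the latter overlapping ACGTG at -60 to -56. The Ldha window held CACGTG at -145 to -140 and -48 to -43, ACGTG on the minus strand at -34 to -30, and TGACGTCA at -12 to -5. The Rpia window held TTGCGCAA at -45 to -38, and the Rpe window held TGACG at -102 to -98.

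All 38 members had an entry in the promoter table, with 56 windows of 250 bases before to 50 bases after a start. ACGTG stood in 21 of the 56 windows (37.5%) and in 19.6% of all 32851 promoter windows of that length. CACGTG stood in 6 windows (10.7%, against 7.15% of all), TGACG in 13 (23.2%, against 20.8%), TGACGTCA in 1 (against 1.79% of all) and TTGCGCAA in 1 (against 0.183% of all). These matches describe letters in the windows and are not measured binding sites.

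The libraries held 27070755 to 55184989 counts, and the members took 0.899% to 1.44% of them. Cebpb was at 75.5 to 130.4 CPM in WT_RT, 108 to 167 CPM in WT_cold, 0.208 to 0.856 CPM in KO_RT and 1.61 to 2.27 CPM in KO_cold. It was thus low in every library labelled knockout. Of 10 brown adipocyte markers none was at 0 counts throughout any group, and their summed level was 15478 to 21074 CPM at RT and 23345 to 28980 CPM in the cold. The single markers went both ways: by calls as defined below, 3 were higher and 4 lower in the cold in WT, and 3 and 5 in KO. Contractile skeletal muscle markers (20 genes) summed to 68.5 to 1676 CPM in WT_RT and 93.3 to 742 CPM in KO_RT, but to 60.5 to 105 CPM in WT_cold and 59.6 to 66.8 CPM in KO_cold. The muscle-rich libraries were WT_RT replicates 1 and 2 and KO_RT replicates 1, 3 and 4. Of the other cell types, endothelial markers went both ways in the cold (2 of 7 higher and 3 lower in WT, 3 and 3 in KO) and lymphocyte markers were called lower for 4 of 7 in WT and 3 of 7 in KO. Over all genes tested, 26.2% were called higher and 30.2% lower in the cold in WT, and 27.5% and 31.7% in KO. In bulk tissue, fewer cells of a type and less RNA per cell cannot be told apart. The first principal component was taken over genes with at least 10 counts in at least 5 libraries. On it, WT_cold replicate 5 lay apart from its group (20.6, against 32.1 to 40.9 in the other WT_cold libraries). WT_RT replicate 4 also lay apart from its group (-23.5, against -44.7 to -34.4 in the other WT_RT libraries). WT_cold replicate 5 was highest of its group for 7 of the 8 pentose phosphate genes.

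Per unit of length, in TPM, which scales counts by exon length and library size, the aldolase Aldoa was the most abundant member at RT in WT, at 1325 ± 199 TPM (mean ± SD, n = 5). The lactate dehydrogenases Ldhb and Ldha followed at 561 ± 43.9 and 545 ± 105 TPM, then the transaldolase Taldo1 at 464 ± 77.6 TPM and the transketolase Tkt at 378 ± 69.7 TPM. Ranks in TPM depend on the annotated exon lengths: by CPM, Ldha was above Ldhb in WT_RT (means 747 and 365). Among members whose sequences are nearly unique, Tkt and the monocarboxylate transporter Slc16a1 (309 ± 19.8 TPM) were the most abundant. The counting left out reads that map to several places, and 11 members shared over 10% of their 50-base stretches with other genes, mostly pseudogenes. These shares were 82.5% for Gapdh, 72.2% for Eno1, 68.0% for Pgk1, 41.5% for Pgam1, 34.4% for Pkm and 27.01% for Ldhb, so the levels of these genes are uncertain.

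In WT tissue more members rose than fell in the cold. With the edgeR quasi-likelihood test and Benjamini-Hochberg adjustment over all 15233 genes, a gene was called when its adjusted p was under 0.05. In WT, 24 of 37 members (64.9%) were called, against 56.4% of all genes tested. Of these, 16 were higher (background 26.2%) and 8 lower (background 30.2%), with a member median of 0.20 log2 against -0.05 over all genes. In KO, 27 of 37 members (73.0%) were called, against 59.2% of all genes, with 14 higher (background 27.5%) and 13 lower (background 31.7%) and a member median of 0.12 log2 against -0.05. The libraries of cold and RT did not overlap for 17 members in WT (background 38.2%) and 20 in KO (background 44.9%).

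Across the genotypes, 12 members were called higher in both, 7 were called lower in both, and none was called in opposite directions. A further 4 were called higher and 1 lower in WT alone, and 2 higher and 6 lower in KO alone, while 5 were called in neither. Whether the genotypes differ in these responses was tested by the interaction, given below. The shares of all genes with these patterns were not counted. Of all genes tested, 56.4% were called for cold in WT and 59.2% in KO.

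**Figure D1:**
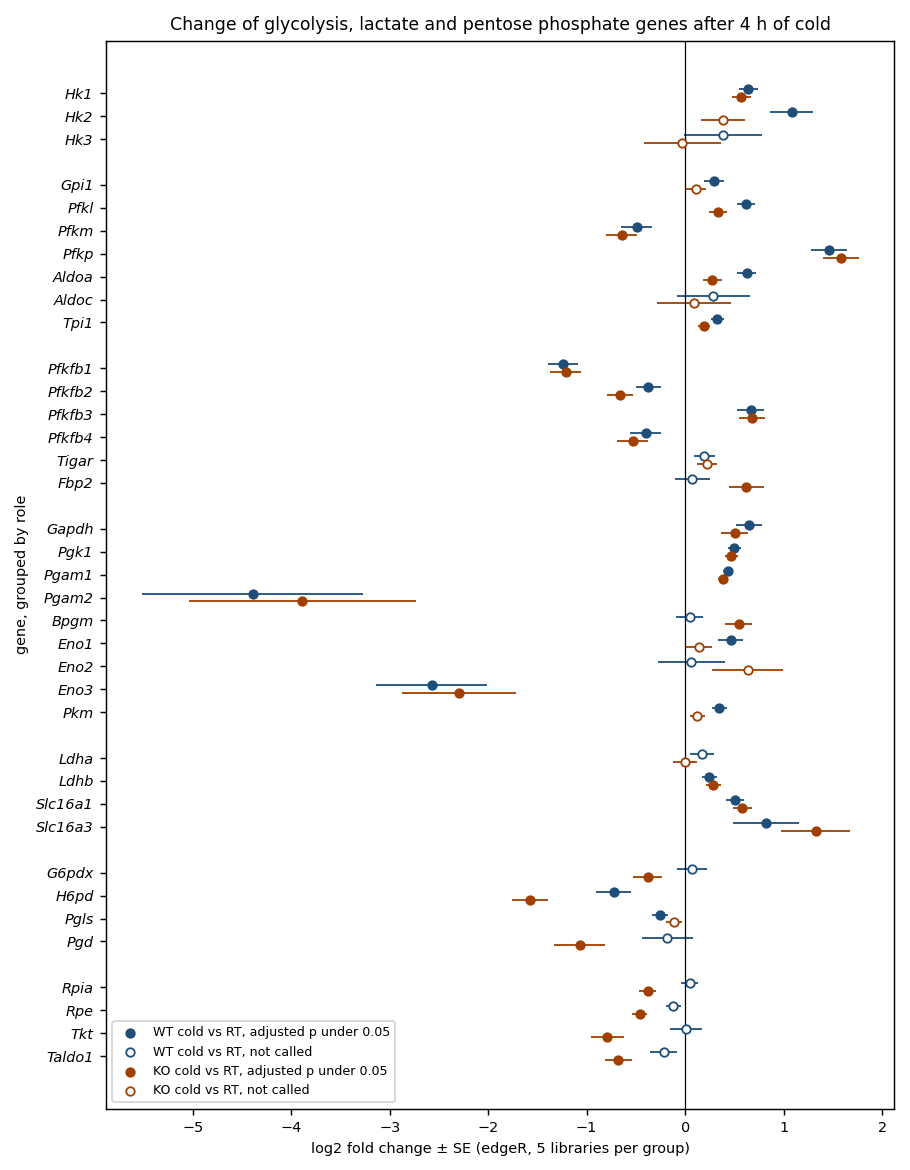
Log2 fold change in CPM from RT to cold for the 37 tested members (y axis, grouped by role), in WT (blue) and KO (brown), as the edgeR estimate ± SE with 5 libraries per group; filled points had an adjusted p under 0.05. Pfkp rose by 1.46 and 1.58, Pgam2 and Eno3 lie farthest to the left with the widest errors, and the 7 filled pentose phosphate points of KO all lie below 0.

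Hexokinases phosphorylate glucose on entry to the cell, and Hk2 is the insulin-responsive form of muscle and fat. Hk2 (ENSMUSG00000000628.10, chr6:82725025-82774454, minus strand) made up 92.0% ± 1.36 of hexokinase TPM in WT_RT. It was at 237, 248, 233, 199 and 197 CPM in WT_RT replicates 1 to 5 and at 480.5, 454, 444, 494 and 483 CPM in WT_cold. All WT_cold libraries were well above all WT_RT libraries, and Hk2 rose by 1.08 ± 0.22 log2 (± SE, edgeR, adjusted p = 4.66e-04).

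In KO, Hk2 was at 325, 377, 284, 465 and 291 CPM at RT and 234.7, 494, 731, 514 and 303 CPM in the cold. The KO_cold libraries ranged from below every KO_RT library (replicate 1) to above all of them (replicates 2, 3 and 4). The cold change in KO was 0.38 ± 0.22 (edgeR adjusted p = 0.145), and its difference from that in WT was -0.70 ± 0.31 (adjusted p = 0.457). At RT every KO library was above every WT library, with a difference of 0.65 ± 0.22 that was not called (adjusted p = 0.158). In the cold the difference between genotypes was -0.05 ± 0.22 (adjusted p = 0.940).

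Hk1, the widely expressed hexokinase that binds mitochondria, rose in both genotypes. It was at 24.7, 25.7, 23.2, 30.3 and 27.3 CPM in WT_RT and 42.1, 39.9, 43.9, 45.4 and 33.8 CPM in WT_cold. The KO levels were 40.5, 37.96, 35.3, 48.4 and 34.0 CPM at RT and 53.2, 52.9, 57.7, 62.1 and 64.8 CPM in the cold. No cold library of either genotype fell within the range of its RT group, and the rises were 0.64 ± 0.10 in WT (edgeR adjusted p = 7.04e-06) and 0.57 ± 0.10 in KO (adjusted p = 2.67e-05). Hk3, a hexokinase of myeloid cells, stayed between 0.227 and 1.02 CPM and was not called in any comparison. Macrophage markers were called higher in the cold for 2 of 9 genes in WT (background 26.2%) and 4 of 9 in KO (background 27.5%). None of 3 tested neutrophil markers was called.

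In WT the balance of Hk2 to Hk1, as a log2 ratio of CPM within each library, moved from 3.08 ± 0.28 to 3.52 ± 0.19 (SD) from RT to cold (exact permutation p = 0.00794, adjusted 0.0260 over the 36 ratio tests made). In KO the same ratio was 3.13 ± 0.14 to 2.86 ± 0.66 (exact permutation p = 0.365, adjusted 0.505). The 6 ratios called for cold in WT, this one included, lost their call without WT_RT replicate 1 or 3 or WT_cold replicate 1, 3 or 4 (adjusted p from 0.0519 to 0.0879), where 4 libraries against 5 allow only larger exact p-values.

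In upper glycolysis, 5 of 7 genes rose and 1 fell in WT, against 26.2% and 30.2% of all genes, and 4 rose and 1 fell in KO, against 27.5% and 31.7%. The largest rise was that of Pfkp (ENSMUSG00000021196.14, chr13:6579768-6648777, minus strand), the platelet-type phosphofructokinase. Phosphofructokinase commits sugar to glycolysis. Pfkp was at 77.2, 106, 81.6, 84.2 and 159 CPM in WT_RT and 312, 296, 240.1, 336 and 217 CPM in WT_cold. The lowest WT_cold library stood above the highest WT_RT library, and the rise was 1.46 ± 0.18 (edgeR adjusted p = 1.64e-06). In KO it went from 164, 157, 128, 120.1 and 126 CPM to 348, 366, 475, 473 and 412 CPM. These groups were also fully apart, with a rise of 1.58 ± 0.18 (adjusted p = 5.88e-07).

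The liver-type gene Pfkl rose by 0.62 ± 0.09 in WT (edgeR adjusted p = 6.95e-06) and 0.33 ± 0.09 in KO (adjusted p = 0.00410), from 339.8 ± 34.1 to 522 ± 50.2 CPM in WT. The muscle-type gene Pfkm fell, with changes of -0.49 ± 0.16 in WT (adjusted p = 0.0130) and -0.65 ± 0.16 in KO (adjusted p = 0.00191). Its level was 113, 85.1, 78.8, 79.8 and 60.2 CPM in WT_RT and 62.1, 73.7, 57.1, 61.0 and 42.2 CPM in WT_cold, overlapping groups in which the muscle-rich WT_RT replicate 1 was highest. In a model that also held the mean level of the muscle markers, the Pfkm change was -0.30 in WT (adjusted p = 0.175) and -0.38 in KO (adjusted p = 0.138), and it was no longer called. In KO that mean level did not overlap between RT and cold, so there the model cannot tell cold from muscle markers. Without the 5 muscle-rich RT libraries the Pfkm change was -0.30 in WT (adjusted p = 0.128) and -0.54 in KO (adjusted p = 0.0191).

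As shares of phosphofructokinase TPM, Pfkl held 61.0% ± 3.93, Pfkm 29.9% ± 6.17 and Pfkp 9.11% ± 3.09 in WT_RT (mean ± SD, n = 5). In WT_cold the shares were 67.1% ± 3.34, 15.1% ± 2.37 and 17.8% ± 1.53. The mean share of Pfkp was then above that of Pfkm, although their ranges over libraries overlapped. TPM divides by exonic length, here 6675 bases for Pfkl, 3340 for Pfkm and 13401 for Pfkp, so these shares depend on the annotated lengths. By CPM the mean of Pfkp was above that of Pfkm already in WT_RT (101.6 and 83.3). In KO the Pfkp share was 10.8% ± 1.503 at RT and 24.9% ± 0.972 in the cold, with Pfkm at 24.9% ± 3.98 and 12.4% ± 2.16. The log2 ratio of Pfkp to Pfkl rose by 0.88 in WT (exact permutation p = 0.0159, adjusted 0.0440) and by 1.25 in KO (exact permutation p = 0.00794, adjusted 0.0260). In the cold it was higher in KO than in WT by 0.59, with no overlap of the libraries (exact permutation p = 0.00794, adjusted 0.0260). This call ended without WT_cold replicate 1, 3 or 4 (adjusted p = 0.0519 each), and Pfkp itself was not called between genotypes in the cold (0.57 ± 0.18, edgeR adjusted p = 0.0604).

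**Figure D2:**
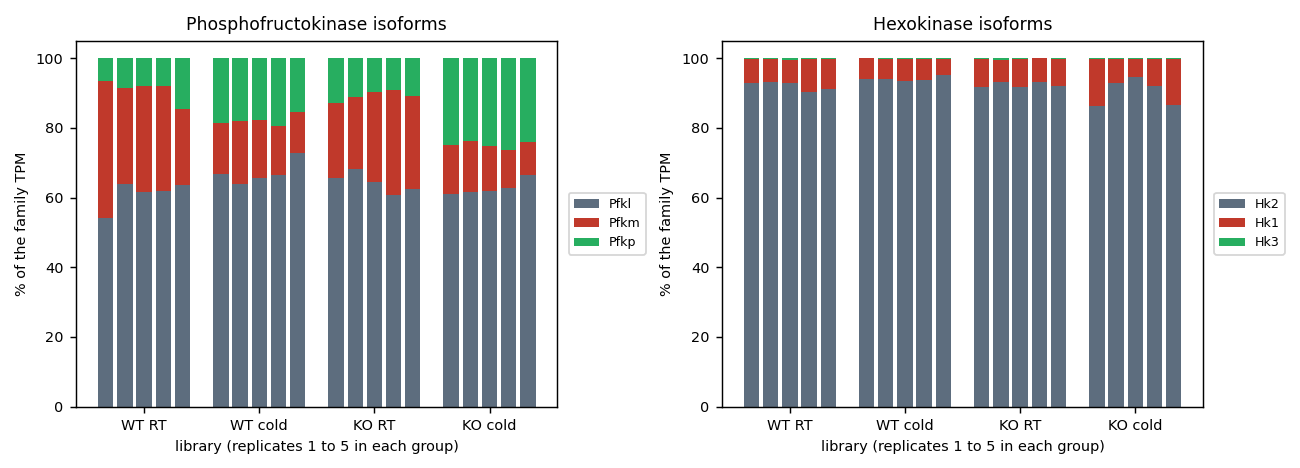
Share of each isoform (y axis, percent of the family's TPM) in each library (x axis, replicates 1 to 5 of each group left to right), for phosphofructokinase (left) and hexokinase (right); each bar is 1 library and sums to 100. The green Pfkp segment is widest in KO_cold, where it lies between 23.9% and 26.3%, and Hk2 fills 86.2% to 95.1% of every hexokinase bar.

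Aldoa (ENSMUSG00000030695.16, chr7:126795234-126800751, minus strand) encodes the aldolase that splits fructose 1,6-bisphosphate and made up over 99.8% of aldolase TPM in every library. It was at 1615, 1750.1, 1459, 1312 and 1844 CPM in WT_RT and 2208, 2422, 2405, 2418 and 2840.3 CPM in WT_cold. The groups did not overlap, and Aldoa rose by 0.62 ± 0.10 (edgeR adjusted p = 1.36e-05). In KO it was at 1912, 2022, 1941, 2020.5 and 1531 CPM at RT and 1914, 2435, 2307, 2226 and 2534 CPM in the cold, with overlap, and rose by 0.28 ± 0.10 (adjusted p = 0.0194). Without the 5 muscle-rich RT libraries the KO change of Aldoa was 0.36 and was no longer called (adjusted p = 0.0502), and that of Pfkl was 0.31 (adjusted p = 0.0587).

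The triose phosphate isomerase Tpi1 rose by 0.33 ± 0.06 in WT (edgeR adjusted p = 1.35e-04) and 0.19 ± 0.06 in KO (adjusted p = 0.0116). The glucose 6-phosphate isomerase Gpi1 rose in WT by 0.29 ± 0.10 (adjusted p = 0.0176), while its change in KO was 0.11 ± 0.10 (adjusted p = 0.353). The brain-type aldolase Aldoc stayed at or below 2.04 CPM and was not called.

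Fructose 2,6-bisphosphate activates phosphofructokinase. The 4 bifunctional enzymes that make and degrade it moved apart in the cold: Pfkfb3 rose and the other 3 fell, in both genotypes. Pfkfb3 (ENSMUSG00000026773.19, chr2:11471433-11554077, minus strand), the form with high kinase activity, held 89.3% ± 1.31 of the family's TPM in WT_RT and 96.6% ± 0.662 in WT_cold. It was at 706, 707, 751, 1042 and 991 CPM in WT_RT and 1493, 1312, 960.5, 1425 and 1469 CPM in WT_cold. WT_cold replicate 3 lay within the RT range and the other 4 above it, and Pfkfb3 rose by 0.67 ± 0.14 (edgeR adjusted p = 2.91e-04). In KO it went from 945, 735, 743, 928 and 835 CPM to 1232, 1206, 1704, 1291 and 1269.6 CPM. These groups did not overlap, and the rise was 0.68 ± 0.14 (adjusted p = 2.21e-04).

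Pfkfb1 (ENSMUSG00000025271.13, chrX:150588229-150643878, plus strand), the form of liver and muscle, fell. It was at 45.4, 38.5, 45.2, 48.0 and 52.9 CPM in WT_RT and 15.8, 14.5, 16.3, 23.6 and 27.2 CPM in WT_cold. The KO libraries had 32.4, 39.3, 34.7, 43.7 and 36.8 CPM at RT and 13.1, 17.02, 19.9, 16.3 and 14.5 CPM in the cold. Every cold library was below every RT library in each genotype, and Pfkfb1 changed by -1.24 ± 0.15 in WT (edgeR adjusted p = 1.30e-06) and -1.21 ± 0.16 in KO (adjusted p = 1.85e-06). The log2 ratio of Pfkfb3 to Pfkfb1 went from 4.17 ± 0.18 to 6.12 ± 0.38 in WT (exact permutation p = 0.00794, adjusted 0.0260) and from 4.48 ± 0.24 to 6.37 ± 0.15 in KO (exact permutation p = 0.00794, adjusted 0.0260). The differences of these means were 1.94 and 1.89.

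The low members Pfkfb2, the heart-type form, and Pfkfb4 also fell. The change of Pfkfb2 was -0.38 ± 0.13 in WT (edgeR adjusted p = 0.0144) and -0.66 ± 0.13 in KO (adjusted p = 1.55e-04). Pfkfb4 changed by -0.40 ± 0.16 in WT (adjusted p = 0.0327) and -0.53 ± 0.16 in KO (adjusted p = 0.00622), at group means of 2.61 to 3.86 CPM. The WT call of Pfkfb2 ended without WT_cold replicate 3 or 4, and that of Pfkfb4 without WT_RT replicate 1, 3 or 5 or WT_cold replicate 2 or 3. Tigar, which degrades fructose 2,6-bisphosphate, was not called in any comparison. Fbp2, the muscle-type fructose bisphosphatase of gluconeogenesis, rose by 0.62 ± 0.18 in KO (adjusted p = 0.00541) and changed by 0.07 ± 0.18 in WT (adjusted p = 0.754). The KO call of Fbp2 ended in the model with the muscle markers (0.61, adjusted p = 0.0631) and without the muscle-rich RT libraries (0.68, adjusted p = 0.0583).

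In lower glycolysis, 5 of 9 genes rose and 2 fell in WT, against 26.2% and 30.2% of all genes, and 4 rose and 2 fell in KO, against 27.5% and 31.7%. The falls were thus no more frequent than over all genes. Gapdh, the glyceraldehyde 3-phosphate dehydrogenase, rose by 0.65 ± 0.13 in WT (edgeR adjusted p = 3.18e-04) and 0.50 ± 0.13 in KO (adjusted p = 0.00278). Pgk1, the phosphoglycerate kinase that makes ATP, rose by 0.50 ± 0.07 and 0.47 ± 0.07 (adjusted p = 1.57e-06 and 3.41e-06). Pgam1, the phosphoglycerate mutase outside muscle, rose by 0.44 ± 0.05 and 0.38 ± 0.05 (adjusted p = 5.74e-07 and 2.69e-06). For Pgk1 and Pgam1 no cold library overlapped an RT library in either genotype, with Pgam1 at 60.3 ± 2.25 CPM in WT_RT and 81.6 ± 5.89 CPM in WT_cold (mean ± SD, n = 5).

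Pkm (ENSMUSG00000032294.17, chr9:59656368-59679375, plus strand), the pyruvate kinase of most tissues, was at 716, 765, 681, 626 and 684 CPM in WT_RT and 776, 889.5, 842, 967 and 943 CPM in WT_cold. These groups were just apart, and Pkm rose by 0.35 ± 0.08 (edgeR adjusted p = 7.20e-04). In KO it was at 914, 975, 874, 916 and 759 CPM at RT and 832, 1057, 966, 952 and 1029 CPM in the cold, which overlapped, with a change of 0.12 ± 0.08 (adjusted p = 0.186). The widely expressed enolase Eno1 rose by 0.46 ± 0.13 in WT (adjusted p = 0.00478) and changed by 0.14 ± 0.13 in KO (adjusted p = 0.374). Bpgm, which makes 2,3-bisphosphoglycerate, rose in KO by 0.54 ± 0.14 (adjusted p = 0.00176) and changed in WT by 0.04 ± 0.13 (adjusted p = 0.797).

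Eno2, the neuron-type enolase, was at group means of only 0.324 to 0.502 CPM and was not called in any comparison. Its cold changes were 0.06 ± 0.34 in WT (edgeR adjusted p = 0.894) and 0.63 ± 0.36 in KO (adjusted p = 0.139). Its log2 ratio to Eno1 changed by -0.42 from RT to cold in WT (exact permutation p = 0.0159, adjusted 0.0440). At RT the ratio was lower in KO than in WT, with a difference of -0.83 (exact permutation p = 0.00794, adjusted 0.0260). The first of these calls ended with a pseudocount of 2 CPM, and the other with counts of both strands. The call between genotypes at RT also ended without WT_RT replicate 1 or 3.

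The 2 genes that fell, Pgam2 and Eno3, encode the muscle forms of phosphoglycerate mutase and enolase. Pgam2 was at 9.69, 3.99, 0.400, 0.0774 and 0.833 CPM in WT_RT and 0.307, 0.0569, 0.235, 0.0306 and 0.0715 CPM in WT_cold, and at 2.08, 0.642, 4.27, 5.28 and 0.534 CPM in KO_RT and 0.298, 0.0392, 0.0372, 0.278 and 0.148 CPM in KO_cold. WT_RT replicates 1 and 2 and KO_RT replicates 1, 3 and 4, the 5 muscle-rich libraries, were highest, and WT_RT replicate 4 was within the cold range. The change was -4.39 ± 1.12 in WT (edgeR adjusted p = 0.00297) and -3.89 ± 1.15 in KO (adjusted p = 0.00781).

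Eno3 was at 40.1, 17.99, 6.03, 4.64 and 6.36 CPM in WT_RT and 3.15, 1.99, 3.06, 2.05 and 2.38 CPM in WT_cold, and at 8.38, 5.002, 18.1, 17.5 and 5.37 CPM in KO_RT and 2.30, 2.20, 1.90, 2.10 and 2.49 CPM in KO_cold. The same 5 RT libraries were highest, but here every RT library, muscle-rich or not, was above every cold library of its genotype. The change was -2.57 ± 0.56 in WT (edgeR adjusted p = 8.29e-04) and -2.30 ± 0.58 in KO (adjusted p = 0.00249).

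Skeletal muscle markers fell with them: 18 of 19 tested markers were called lower in WT (background 30.2%) and 15 of 19 in KO (background 31.7%). In WT_cold 1 marker and in KO_cold 3 were at 0 counts in all 5 libraries. In a model that also held the mean muscle marker level, Pgam2 was -0.42 in WT (adjusted p = 0.374) and turned to 0.71 in KO (adjusted p = 0.192). Eno3 was then -0.80 in WT (adjusted p = 0.00424) and -0.20 in KO (adjusted p = 0.538). In KO the mean muscle marker level was 0.49 to 4.12 log2 CPM at RT and -1.72 to -1.54 in the cold, without overlap. For KO this model therefore cannot tell a change with cold from one with the muscle markers. Without the 5 muscle-rich RT libraries, Pgam2 was -1.62 in WT and -1.80 in KO and was not called. Eno3 was then -1.17 (adjusted p = 2.42e-05) and -1.24 (adjusted p = 5.40e-05) and remained called in each genotype. The log2 ratio of Eno3 to Eno1 changed by -2.50 in WT (exact permutation p = 0.00794, adjusted 0.0260) and -2.18 in KO (exact permutation p = 0.00794, adjusted 0.0260). The ratio of Pgam2 to Pgam1 changed by -3.39 in KO (exact permutation p = 0.00794, adjusted 0.0260) and by -2.98 in WT, where it was not called (exact permutation p = 0.0238, adjusted 0.0612). In all, 13 of the 36 ratio tests were called.

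**Figure D3:**
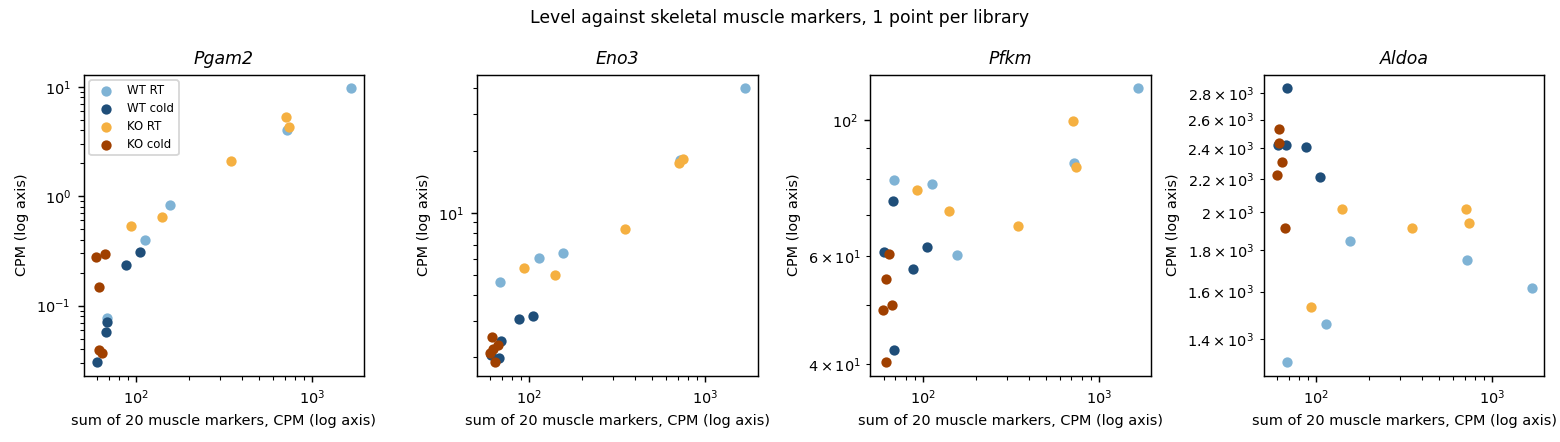
CPM of 4 members (y axes, log scale) against the summed CPM of 20 contractile skeletal muscle markers (x axes, log scale), with 1 point per library coloured by group. Pgam2 and Eno3 climb with the markers up to WT_RT replicate 1 at 1676 CPM, whereas Aldoa is highest among the cold libraries, whose marker sums are at most 105 CPM.

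Lactate dehydrogenase is a tetramer of Ldha and Ldhb subunits. Ldha, the form usually tied to lactate production, was at 743, 917, 693, 562 and 818 CPM in WT_RT and 756, 806, 718, 933 and 981 CPM in WT_cold. In KO it was at 928, 997, 908, 914 and 739 CPM at RT and 680.1, 921, 976, 889 and 1009 CPM in the cold. The groups overlapped throughout, with cold changes of 0.17 ± 0.12 in WT (edgeR adjusted p = 0.260) and -0.00 ± 0.12 in KO (adjusted p = 0.979). Ldhb, the heart form usually tied to lactate oxidation, rose by 0.25 ± 0.08 in WT (adjusted p = 0.00950) and 0.29 ± 0.08 in KO (adjusted p = 0.00312). Ldha made up 48.9% ± 4.60, 47.7% ± 3.25, 53.6% ± 3.73 and 48.6% ± 3.58 of lactate dehydrogenase TPM in WT_RT, WT_cold, KO_RT and KO_cold, and the ratio of Ldhb to Ldha was called in none of the 4 comparisons (adjusted exact permutation p from 0.168 to 0.741).

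Slc16a1 (ENSMUSG00000032902.1, chr3:104638668-104658462, plus strand) encodes MCT1, a transporter of lactate and other monocarboxylates, and made up over 99.8% of the TPM of the pair Slc16a1 and Slc16a3 in every library. It was at 516, 616, 546, 581 and 575 CPM in WT_RT and 774, 850.0, 748, 697 and 956 CPM in WT_cold. KO libraries had 786, 544, 627, 690.2 and 706 CPM at RT and 1159, 1049, 922, 905 and 980.3 CPM in the cold. Cold and RT did not overlap in either genotype, and Slc16a1 rose by 0.51 ± 0.10 in WT (edgeR adjusted p = 1.09e-04) and 0.58 ± 0.10 in KO (adjusted p = 2.02e-05).

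Slc16a3, which encodes the lactate exporter MCT4, was near the detection limit. It was at 1.03, 0.420, 0.286, 0.413 and 0.354 CPM in WT_RT and 1.007, 1.16, 0.999, 0.520 and 0.739 CPM in WT_cold. WT_RT replicate 1, the library richest in muscle markers, was within the cold range and the other 4 were below it. In KO it was at 0.513, 0.401, 0.546, 0.486 and 0.208 CPM at RT and 1.04, 1.49, 0.558, 0.804 and 1.51 CPM in the cold, without overlap. The rise was 0.82 ± 0.34 in WT (edgeR adjusted p = 0.0417) and 1.32 ± 0.35 in KO (adjusted p = 0.00254). Without WT_RT replicate 1 the WT rise was 1.26, and its call ended without any single WT_RT replicate of 2 to 5 or WT_cold replicate of 1 to 3 (adjusted p up to 0.0935).

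None of the 8 pentose phosphate genes was called higher in the cold in either genotype. In WT 2 of 8 were called lower, a share below the 30.2% of all genes, and in KO 7 of 8, against 31.7% of all genes. The median changes were -0.15 and -0.57 log2 against -0.05 over all genes in each genotype.

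H6pd (ENSMUSG00000028980.14, chr4:149979475-150009023, minus strand) encodes the hexose 6-phosphate dehydrogenase of the endoplasmic reticulum, which makes NADPH there. It was at 160.4, 121, 131, 129.8 and 149 CPM in WT_RT and 70.8, 58.4, 69.5, 81.0 and 139 CPM in WT_cold. WT_cold replicate 5 lay within the RT range and the other 4 far below it. In KO it was at 136, 153, 115, 177 and 132 CPM at RT and 43.8, 49.8, 45.1, 45.7 and 54.2 CPM in the cold, with no overlap and little spread in the cold. H6pd changed by -0.72 ± 0.18 in WT (edgeR adjusted p = 0.00198) and -1.58 ± 0.18 in KO (adjusted p = 6.62e-07).

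Pgd (ENSMUSG00000028961.15, chr4:149149991-149166771, minus strand), the 6-phosphogluconate dehydrogenase that makes the second NADPH of the oxidative branch, was at 141, 215, 154, 101 and 157 CPM in WT_RT and 102, 102, 103, 132 and 237 CPM in WT_cold. WT_cold replicate 5 was above every WT_RT library, and the other 4 lay at the lower end of the RT range. In KO Pgd was at 280.0, 384, 217, 241 and 164 CPM at RT and 96.6, 136, 119.6, 119 and 140.0 CPM in the cold, fully apart. Its change was -0.18 ± 0.26 in WT (edgeR adjusted p = 0.571) and -1.07 ± 0.26 in KO (adjusted p = 0.00187).

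G6pdx, the glucose 6-phosphate dehydrogenase that opens the oxidative branch, changed by 0.07 ± 0.15 in WT (edgeR adjusted p = 0.717) and fell in KO, with a change of -0.38 ± 0.15 (adjusted p = 0.0356). The KO call of G6pdx ended without any single library of KO_RT or KO_cold other than KO_RT replicate 5 (adjusted p up to 0.131). Pgls, the 6-phosphogluconolactonase, fell in WT, with a change of -0.26 ± 0.08 (adjusted p = 0.00889), and changed by -0.11 ± 0.08 in KO (adjusted p = 0.245).

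Tkt (ENSMUSG00000021957.7, chr14:30548359-30574720, plus strand), the transketolase of the non-oxidative branch, was at 1112, 1448, 1234, 908 and 1055 CPM in WT_RT and 912, 1010.2, 1058, 1082 and 1734 CPM in WT_cold. WT_cold replicate 5 was above every WT_RT library, and the other 4 overlapped with RT. In KO Tkt was at 1554, 1916, 1433, 1736 and 1178 CPM at RT and 800.4, 998, 849, 799 and 1074 CPM in the cold, with every cold library lower. Its change was 0.01 ± 0.17 in WT (edgeR adjusted p = 0.965) and -0.79 ± 0.17 in KO (adjusted p = 4.38e-04).

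The other 3 genes of that branch also fell in KO without overlap. The transaldolase Taldo1 changed by -0.68 ± 0.14 (edgeR adjusted p = 2.78e-04), the ribulose phosphate epimerase Rpe by -0.46 ± 0.08 (adjusted p = 1.99e-05) and the ribose phosphate isomerase Rpia by -0.38 ± 0.09 (adjusted p = 6.48e-04). In WT their changes were -0.22 ± 0.14, -0.12 ± 0.07 and 0.05 ± 0.08, and none was called (adjusted p = 0.188, 0.174 and 0.668).

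Leaving out WT_cold replicate 5 moved the WT values. Without it, 4 of the 8 genes were called lower in WT: H6pd (-0.96), Taldo1 (-0.34), Pgls (-0.21) and Rpe (-0.19). The share of all genes called lower in that fit is not set beside this count, as the background above is from the fit of all libraries. The changes of Pgd (-0.46, adjusted p = 0.0872) and Tkt (-0.15, adjusted p = 0.349) were then below 0 but not called.

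**Figure D4:**
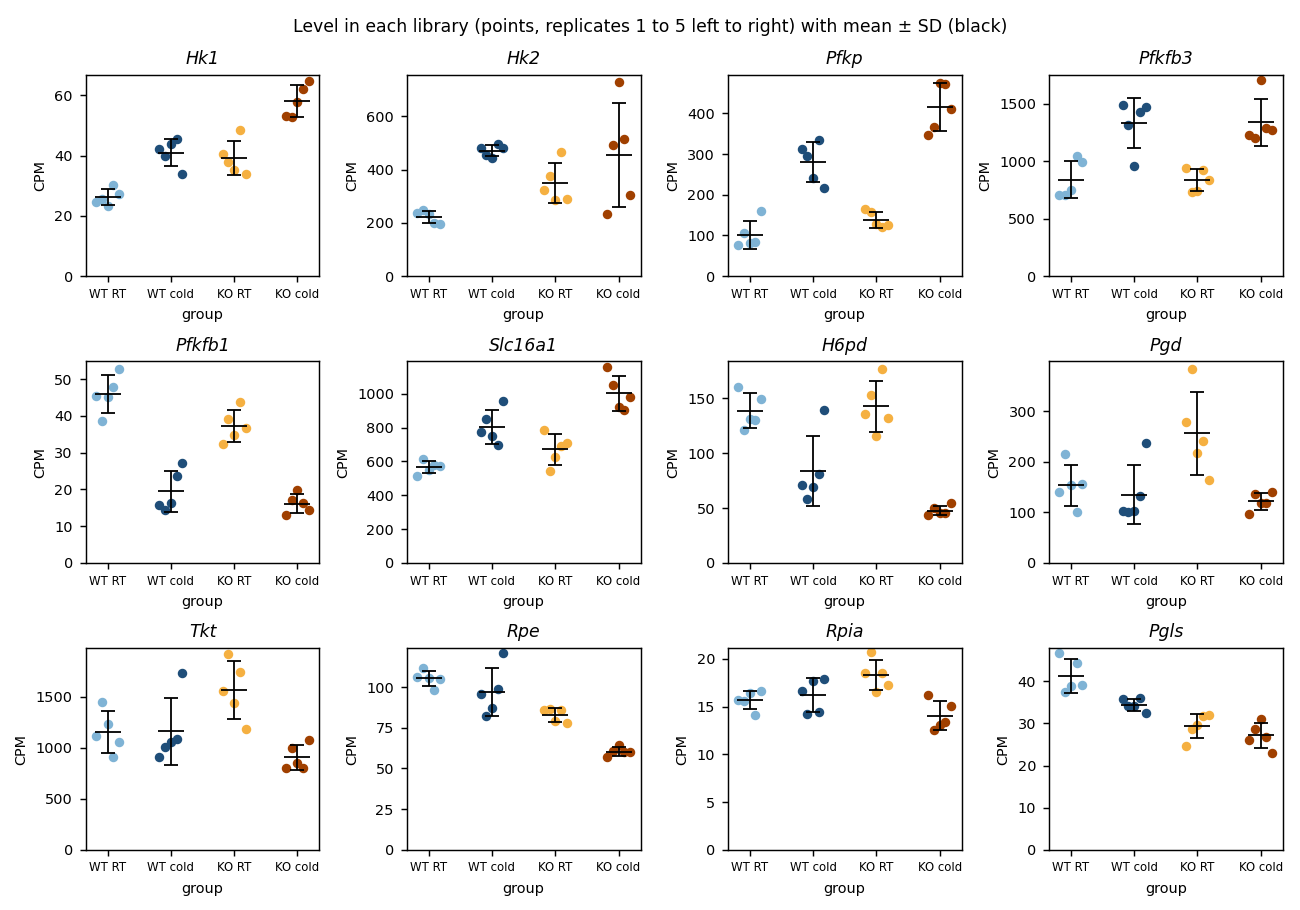
CPM of 12 members (y axes, from 0) in each library of the 4 groups (x axes), as points for replicates 1 to 5 from left to right with the mean ± SD in black. In H6pd, Pgd and Tkt the last WT_cold point (139, 237 and 1734 CPM) stands above the rest of its group, while the KO_cold points lie together.

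The knockout changed few members. At RT, 4 of 37 members (10.8%) were called between KO and WT, against 2.7% of all genes, with 2 higher (background 1.38%) and 2 lower (background 1.32%) and a member median of 0.14 log2 against -0.00. In the cold, 7 of 37 (18.9%) were called, against 7.7% of all genes, with 3 higher (background 3.51%) and 4 lower (background 4.19%) and a member median of -0.01 against 0.00. The libraries of KO and WT did not overlap for 4 members at RT (background 4.98%) and 6 in the cold (background 7%).

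Hk1, Pgls and Rpe were called at both temperatures. Hk1 was higher in KO by 0.58 ± 0.10 at RT (edgeR adjusted p = 0.00102) and 0.50 ± 0.10 in the cold (adjusted p = 0.00136), and from the values above each KO library exceeded each WT library of its temperature. Rpe was at 106, 112, 106, 98.5 and 105 CPM in WT_RT, 95.7, 82.4, 86.9, 98.8 and 121 CPM in WT_cold, 86.1, 86.6, 78.9, 85.9 and 78.0 CPM in KO_RT and 56.9, 61.0, 64.2, 59.9 and 59.9998 CPM in KO_cold. All KO libraries were below all WT libraries at each temperature, and the KO_cold libraries were lowest of all. Rpe was lower in KO, with differences from WT of -0.34 ± 0.08 at RT (adjusted p = 0.0128) and -0.68 ± 0.08 in the cold (adjusted p = 3.30e-06).

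Pgls was at 46.6, 37.3, 38.8, 44.3 and 39.1 CPM in WT_RT, 35.7, 34.0, 34.1, 35.9 and 32.5 CPM in WT_cold, 24.7, 28.7, 29.6, 31.7 and 32.0 CPM in KO_RT and 26.1, 28.7, 31.1, 26.8 and 22.9 CPM in KO_cold. It was lower in every KO library than in any WT library of the same temperature, with differences of -0.49 ± 0.08 at RT (edgeR adjusted p = 9.21e-04) and -0.35 ± 0.08 in the cold (adjusted p = 0.00901). The fourth call at RT was Pkm, higher in KO by 0.35 ± 0.08 (adjusted p = 0.0143), with overlap. Its call ended without KO_RT replicate 2 (adjusted p = 0.05004). Without the 5 muscle-rich RT libraries, which leaves 3 WT_RT and 2 KO_RT, none of these 4 genes was called at RT, with values from -0.42 for Pgls to 0.42 for Hk1.

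In the cold, H6pd was lower in KO, with a difference of -0.81 ± 0.18 (edgeR adjusted p = 0.00764), or -0.55 without WT_cold replicate 5 (adjusted p = 0.00406), and no KO_cold library overlapped WT_cold. In a fit of only these 2 groups the H6pd difference was -0.81 and was not called (adjusted p = 0.0588). Taldo1 was lower, with a difference of -0.47 ± 0.14 (adjusted p = 0.0388). This call ended without WT_cold replicate 4 or 5 or KO_cold replicate 1, 2, 3 or 4, and the value was -0.32 without WT_cold replicate 5. Fbp2 was higher in KO by 0.77 ± 0.18 (adjusted p = 0.00853), at 8.82, 11.6, 10.7, 15.7 and 8.90 CPM in WT_cold and 13.6, 18.6, 17.4, 19.1 and 26.3 CPM in KO_cold, where 1 WT library reached into the KO range. Slc16a1 was higher by 0.32 ± 0.10 (adjusted p = 0.0432), a call that ended without WT_cold replicate 1, 2, 3 or 4 or KO_cold replicate 1, 2 or 5.

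All 8 pentose phosphate genes had values below 0 for KO against WT in the cold (median -0.35 log2, against 0.00 over all genes), and 4 were called lower (background 4.19%). At RT 5 of the 8 values were above 0 (median 0.09) and 2 genes were called lower (background 1.32%). The largest value at RT was that of Pgd, 0.74 ± 0.26, which did not pass the test (adjusted p = 0.169). Without WT_cold replicate 5, 7 of 8 values were below 0 in the cold and 3 were called (H6pd, Pgls and Rpe). No share of all genes from that fit is set beside this count. The KO_cold libraries enter both the comparison with WT_cold and that with KO_RT.

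Markers of fibroblasts and adipocyte progenitors were also higher in KO: 2 of 7 were called at RT (background 1.38%) and 4 of 7 in the cold (background 3.51%). Their summed levels were 382 to 475 CPM in WT_RT, 460.4 to 615 CPM in KO_RT, 425 to 492 CPM in WT_cold and 548 to 623 CPM in KO_cold. Of 10 brown adipocyte markers, 2 were called lower in KO at RT (background 1.32%) and 3 in the cold (background 4.19%). No contractile muscle marker, of 19 tested, and no marker of macrophages, neutrophils, red cells, lymphocytes, endothelium or nerve was called between genotypes at either temperature. The part of other cell types in the differences of Hk1, Pgls, Rpe and the other members was not tested.

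**Figure D5:**
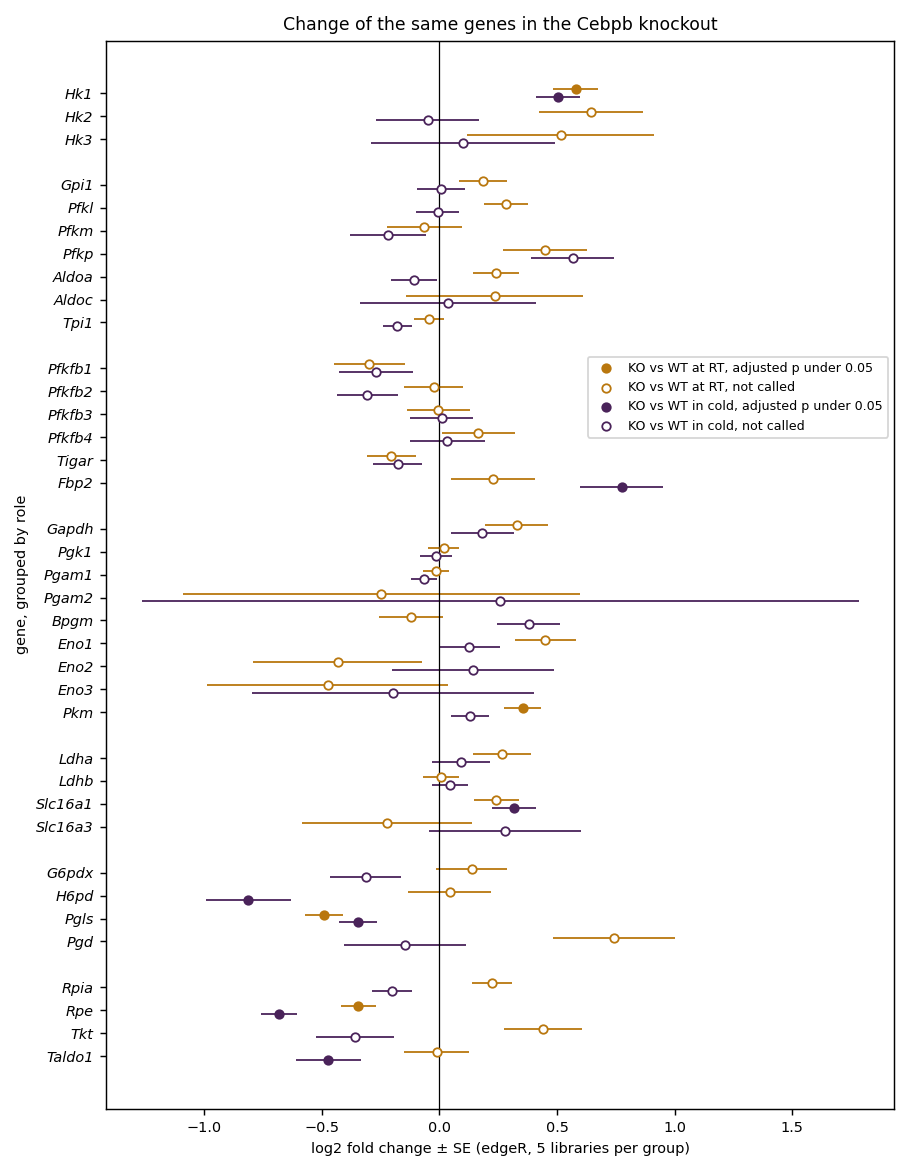
Log2 fold change in CPM from WT to KO for the 37 tested members (y axis, grouped by role), at RT (gold) and in the cold (purple), as the edgeR estimate ± SE with 5 libraries per group; filled points had an adjusted p under 0.05. Hk1 is filled to the right at both temperatures, Pgls and Rpe to the left, and all 8 purple pentose phosphate points lie left of 0.

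The interaction asks whether the cold response differed between KO and WT. With edgeR no member was called for it, against 0.742% of all genes (0.427% higher and 0.315% lower), while 12 of 37 members had an unadjusted p under 0.05, against 10.1% of all genes. Of these 12, 7 were pentose phosphate genes, all with a more negative response in KO. The values were -0.85 ± 0.25 for H6pd (adjusted p = 0.161), -0.80 ± 0.23 for Tkt (adjusted p = 0.152), -0.42 ± 0.12 for Rpia (adjusted p = 0.125) and -0.34 ± 0.11 for Rpe (adjusted p = 0.184). Pgd, Taldo1 and G6pdx had -0.89, -0.46 and -0.45 (adjusted p from 0.405 to 0.485). The other 5 were Hk2, Pfkl and Aldoa, with a smaller rise in KO, and Fbp2 and Bpgm, with a larger one (adjusted p from 0.341 to 0.467). For Hk2, Pfkl and Aldoa the differences of KO from WT were 0.65, 0.28 and 0.24 at RT. They were -0.05, -0.01 and -0.11 in the cold, and none of these was called.

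The DESeq2 Wald test called 3 of these interactions, H6pd (-0.85, adjusted p = 0.0245), Tkt (-0.80, adjusted p = 0.0302) and Rpia (-0.43, adjusted p = 0.0470). Without WT_cold replicate 5 the edgeR values were -0.59 for H6pd (adjusted p = 0.0985) and -0.61 for Tkt (adjusted p = 0.201), and again no member was called.

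Around the 38 members, 30 other genes of sugar metabolism, sugar and lactate transport and their regulation were listed, of which 21 were tested. In WT 8 rose and 7 fell in the cold, against 26.2% and 30.2% of all genes, and in KO 8 rose and 8 fell, against 27.5% and 31.7%. The shares that fell lie near those of all genes. Slc2a1, the basal glucose transporter, rose by 1.22 ± 0.11 in WT (mean 5.94 to 13.9 CPM, edgeR adjusted p = 6.43e-09) and 1.495 ± 0.11 in KO (mean 5.57 to 15.7 CPM, adjusted p = 4.87e-10). Fbp1, the liver-type fructose bisphosphatase, rose from a very low level by 2.33 ± 0.38 in WT (mean 0.138 to 0.728 CPM, adjusted p = 2.25e-05) and 3.30 ± 0.38 in KO (mean 0.135 to 1.38 CPM, adjusted p = 2.25e-07). Mlxipl, which encodes the glucose-responsive factor ChREBP, fell, with changes of -1.09 ± 0.19 in WT (mean 104 to 48.99 CPM, adjusted p = 1.10e-04) and -1.39 ± 0.20 in KO (mean 125 to 47.6 CPM, adjusted p = 7.85e-06). Between genotypes, 1 of the 21 was called higher in KO at RT, the transporter gene Slc16a7 (0.62 ± 0.16, adjusted p = 0.0399). In the cold 2 were called higher, the ADP-using kinase gene Adpgk (0.31 ± 0.09, adjusted p = 0.0283) and Hif1a (0.20 ± 0.06, adjusted p = 0.0454), the hypoxia factor subunit. These last 3 were named after their values were seen.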

How the data were processed

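The deposited tables hold raw counts of reads per gene for each library. Per the submitters' processing notes, the authors used Trim Galore 0.6.0 and STAR 2.7.8a with genome build GRCm38.p6 (mm10); the annotation release was not given in the sources used here. The counts of reads on the reverse strand, which held most reads assigned by strand, were used, and 4 entries that name no gene were left out. Symbols, exon lengths and coordinates came from GENCODE M21 on GRCm38, whose IDs matched 55230 of 55471. Aldoa had 2 IDs, and the one at the RefSeq locus was used.

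The 38 members, the lists and the markers were chosen with earlier results of these data known. Genes were filtered by edgeR's filterByExpr (minimum count 10, minimum total 15) and scaled by TMM. One edgeR 4.0.16 quasi-likelihood model of the 4 groups (16 residual degrees of freedom) gave all comparisons, with Benjamini-Hochberg adjustment over 15233 genes and calls at 0.05. Genes had a biological coefficient of variation of 15.3%. CPM used TMM-scaled library sizes, and TPM the union of exons. Isoenzyme ratios used log2(CPM + 0.1) and exact 2-sided permutation tests (smallest possible p 0.00794), adjusted over 36 tests. Tests were checked on simulated data. DESeq2 1.42.0 was an alternative.

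Values per library were due for members called with an absolute log2 change of at least 1, or with the highest mean CPM of their role, and from the other lists up to 3 genes called at that size were named; 1 such gene is not reported here. The values per library of Hk1, Pfkm, Fbp2, Slc16a1, Rpe and Pgls and the 5 promoters shown were added after the results were seen.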

Additional observations from a re-analysis of the deposited data

Results flagged for a closer look

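In 10 of 148 groups of 5 libraries, 1 library stood apart from the rest of its group in the CPM of a member, by Dixon's criterion on the gap to the nearest library. Chance alone gives about 1 such group in 20.

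WT_cold replicate 5 stood above its group in 4 pentose phosphate genes. It had 254.7 CPM of G6pdx (next highest library 159.9), 139.2 CPM of H6pd (next 81.0), 237.5 CPM of Pgd (next 132.1) and 1734 CPM of Tkt (next 1082).

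WT_RT replicate 3 was above its group for Hk3, at 0.7996 CPM (next 0.3417). WT_RT replicate 1 was above its group for Slc16a3, at 1.025 CPM (next 0.4205), and was also the library with the highest muscle marker sum. KO_RT replicate 5 was below its group for Aldoa, at 1531 CPM (next 1912), and above it for Pfkfb2, at 8.165 CPM (next 6.616). KO_cold replicate 1 was below its group for Tpi1, at 287.6 CPM (next 330.4), and KO_cold replicate 3 was above it for Pfkfb3, at 1704 CPM (next 1291). No reason for these values was tested.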

How the results depend on the processing

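Of 62 member results that passed the edgeR test, all 62 kept direction and call with relative log expression scaling, with counts of both strands, with DESeq2 and with the replicate number as a block. The same-number correlations of deviations ran from -0.18 to 0.27, and 7 of 20 exceeded 0.1. Between WT_cold and KO_cold, 3 exceeded 0.1 and 3 libraries correlated best with their own number. Such correlations cannot exclude a pairing by number. With the replicate block, 16 members were higher and 8 lower for cold in WT, and 14 and 13 in KO. It gave 2 and 2 for KO at RT, 3 and 4 in the cold, and 0 for the interaction. Scaling moved the median of all genes by at most 0.03 log2. Without the expression filter 4 calls ended (Pfkfb4 in WT cold, G6pdx in KO cold, and Slc16a1 and Taldo1 between genotypes in the cold).

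A fit of only the compared groups left 2 lower members for KO in the cold. DESeq2 gave 4 higher members for KO at RT (Hk2 and Eno1 in addition) and 3 lower for the interaction; over all genes it called 317 lower for KO at RT (edgeR 201) and 129 higher and 140 lower for the interaction (edgeR 65 and 48; 40 higher without the filter). With the muscle marker term, 5 members were lower for cold in WT and 8 in KO, and Pgam2 in KO turned to 0.71. Another 10 calls ended. For cold, these were Pfkm and Pfkfb4 in each genotype, Pgam2 in WT, and Eno3, Fbp2 and G6pdx in KO. Between genotypes in the cold they were Slc16a1 and Taldo1, which left 3 of 4 pentose phosphate calls there. The term did not overlap between KO_RT and KO_cold, so calls that ended for cold in KO cannot be assigned to muscle. Without the 5 muscle-rich RT libraries, an alternative chosen after seeing the data, 4 members were lower for cold in WT, and 0 were higher and 0 lower for KO at RT, where 44 and 26 genes of all were called; fewer libraries were in that fit, and 16 calls ended, among the rises those of Gpi1 in WT and Pfkl, Aldoa and Fbp2 in KO. Without WT_RT replicate 4 and WT_cold replicate 5, 5 member calls ended. This pair, the WT libraries nearest the middle of the first principal component, was also chosen afterwards. In that fit all 8 pentose phosphate genes were below 0 for cold in WT, with 4 called lower, against 7 called lower in KO. Their median interaction was -0.29 log2, against -0.46 in the main fit. No share of all genes is set beside these counts.

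Leaving out 1 library gave 15 to 16 higher and 6 to 10 lower members for cold in WT, 14 to 17 and 12 to 13 in KO, 1 to 3 and 2 to 2 for KO at RT, 2 to 4 and 3 to 4 in the cold, and 0 to 0 for the interaction. The count of called ratios went from 13 to between 6 and 14, with 6 without WT_RT replicate 1 or 3 or WT_cold replicate 1, 3 or 4; 4 libraries against 5 allow only larger exact p-values. Pgam2, Slc16a3, Hk3 and Eno2 had few reads in most libraries, which limits their precision and that of the ratios that use them.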
